A study of Homo sapiens with 6 samples.

Results

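Transcripts of 10 genes of chemokines that tumour cells can secrete were followed in OVCAR5 cells treated with the DNA hypomethylating agent NTX301. The genes are CXCL1, CXCL2, CXCL3, CXCL5, CXCL6, CXCL8, CXCL10, CXCL11, CXCL16 and CCL20, taken as a named list by their Ensembl identifiers, and all 10 were found among the 62656 genes of the deposited tables. OVCAR5 is a long-established human tumour line that serves as an ovarian carcinoma model. The first group is 3 libraries of cells given 100 nM NTX301 for 3 days, and the second is 3 libraries of cells given the solvent dimethyl sulfoxide (DMSO) for the same time. Cells of both groups grew in the same serum-containing medium, and a hypomethylating agent is a drug that lowers cytosine methylation in DNA. All values come from 1 cell line grown alone, without the leukocytes on which chemokines act.

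Chemokines are small secreted proteins that guide migrating cells through G protein-coupled receptors. CXCL1, CXCL2, CXCL3, CXCL5, CXCL6 and CXCL8 carry a glutamate-leucine-arginine (ELR) motif before their first cysteines, attract neutrophils through CXCR2 and promote vessel growth. CXCL10 and CXCL11 lack that motif, are classic interferon-induced genes and attract activated T cells through CXCR3. CXCL16 is made as a membrane protein that is cut free by ADAM10 and binds CXCR6, and CCL20 attracts CCR6-bearing lymphocytes and dendritic cells. Most of these genes are textbook targets of the transcription factor NF-kB, and several also respond to AP-1.

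The promoters show what the genes share in sequence. The following were printed because they belong to the genes with the clearest rises (CXCL8, CCL20, CXCL10 and CXCL11) or to a pair of close copies. Of that pair CXCL1 was not called and CXCL2 had a small rise. Each line runs 5′ to 3′ on the gene's strand and ends at the last base before the RefSeq start (GRCh38.p14). Capitals mark matches on either strand to the core of the NF-kB site (GGNNNTTCC), to the AP-1 site (TGANTCA) and to an interferon-stimulated element (GAAA, any 2 bases, GAAA), where N is any base.
CXCL8 (chr4:73740419-73740568, plus strand): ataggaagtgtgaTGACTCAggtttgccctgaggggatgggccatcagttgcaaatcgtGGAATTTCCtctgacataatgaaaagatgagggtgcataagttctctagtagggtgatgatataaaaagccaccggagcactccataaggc
CCL20 (chr2:227813692-227813841, plus strand): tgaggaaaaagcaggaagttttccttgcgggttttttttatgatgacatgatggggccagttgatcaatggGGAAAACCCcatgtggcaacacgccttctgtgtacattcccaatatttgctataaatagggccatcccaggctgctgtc
CXCL1 (chr4:73869243-73869392, plus strand): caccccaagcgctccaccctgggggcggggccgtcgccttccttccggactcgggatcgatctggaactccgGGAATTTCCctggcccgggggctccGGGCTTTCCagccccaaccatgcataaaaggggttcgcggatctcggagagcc
CXCL2 (chr4:74099196-74099345, minus strand): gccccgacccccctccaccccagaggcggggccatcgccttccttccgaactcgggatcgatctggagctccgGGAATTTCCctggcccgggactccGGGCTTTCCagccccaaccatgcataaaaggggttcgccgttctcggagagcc
CXCL10 (chr4:76023498-76023727, minus strand): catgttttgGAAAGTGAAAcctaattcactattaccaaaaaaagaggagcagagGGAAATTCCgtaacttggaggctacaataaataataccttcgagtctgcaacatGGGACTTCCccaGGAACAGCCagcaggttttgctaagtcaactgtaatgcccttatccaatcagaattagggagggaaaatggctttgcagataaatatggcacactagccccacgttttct
CXCL11 (chr4:76036071-76036220, minus strand): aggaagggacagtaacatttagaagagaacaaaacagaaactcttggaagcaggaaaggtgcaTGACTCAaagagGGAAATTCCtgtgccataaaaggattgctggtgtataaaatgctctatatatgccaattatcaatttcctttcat

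RefSeq promoters were matched for 9 of the 10 genes, and all 9 held the NF-kB core within 250 bases before the start, against 17.12% of all 35116 promoters searched over the same length. In CXCL1, CXCL2 and CXCL3 a first match began 77 or 78 bases before the start and a second 53 bases before it. CXCL5 and CXCL6 held a single match 90 and 89 bases before the start, and CXCL8 1 match 91 bases before it. The AP-1 letters were found in CXCL8 (137 bases before the start) and CXCL11 (87 bases before it), against 6.57% of all promoters. The interferon-stimulated letters were found in CXCL10 alone of the 9, 221 bases before the start, against 3.02% of all promoters. No match to 1 motif overlapped a match to another in these promoters. A match describes letters in a window and is not evidence of binding.

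The copies within the family were close. Over the last 150 bases before the start, CXCL1 and CXCL2 were 88.7% identical, CXCL1 and CXCL3 88.1% and CXCL5 and CXCL6 89.4%, whereas CXCL1 and CXCL8 were 43.7% identical. CpG dinucleotides, the sites at which DNA methylation is set, numbered 18, 20 and 19 in the 250 bases before CXCL1, CXCL2 and CXCL3. They numbered 6 in each of CXCL5 and CXCL6, 4 in CXCL8, 3 in each of CXCL10 and CCL20 and 0 in CXCL11, against a median of 11 over all promoters. Methylation itself was not analysed here.

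The NTX301 libraries held 23194160 to 23842859 estimated reads and the DMSO libraries 22131175 to 25743732. No label says if replicates were grown apart, so the p-values here speak only to library-to-library spread, which may be technical. DMSO replicate 3 stood at -17.11 on the second principal component (3.59% of the variance), against 11.32 and 6.40 for DMSO replicates 1 and 2. Epithelial keratins and EPCAM were abundant in both groups, with a summed level of 7 epithelial markers of 1988 to 2101 CPM in NTX301 libraries and 3999 to 4287 CPM in DMSO libraries (2 higher, 5 lower). Of 5 markers of ovarian carcinoma 3 were tested: PAX8 was not called, MUC16 fell by 2.31 ± 0.26 on the log2 scale and MECOM rose by 1.43 ± 0.08. WT1 had 10 counts over the NTX301 libraries and 3 over the DMSO libraries, and SOX17 had 0 in all 6. Of 4 gut epithelial markers CDH17 fell, at 2.53 ± 0.688 CPM with NTX301 and 7.67 ± 0.445 CPM with DMSO. The other gut markers, CDX2 (8.51 CPM with NTX301 and 8.60 CPM with DMSO), VIL1 and LGALS4, were not called.

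With NTX301, 6 of the 10 chemokines rose (CXCL2, CXCL6, CXCL8, CXCL10, CXCL11 and CCL20), 0 fell and 4 were not called (edgeR, quasi-likelihood F test, p adjusted by Benjamini-Hochberg over 19029 tested genes, threshold 0.05). Over all tested genes 35.4% were called higher, 35.1% lower and 70.5% in either direction, so a call by itself was common. Rises of 2-fold or more were called in 4 of the 10 (CXCL8, CXCL10, CXCL11 and CCL20), against 13.4% of all tested genes, and falls of 2-fold or more in 0, against 8.55%. CPM ranges stood apart in 5 of the 10, each time with NTX301 above, against 73.7% of tested genes without overlap, 37.2% with NTX301 above and 36.5% with NTX301 below. The median log2 fold change was 0.66 for the 10 chemokines and 0 for all tested genes. All 10 passed the filter on low counts, but CXCL6, CXCL10, CXCL11 and CCL20 would not have passed on the DMSO libraries alone. Their lowest counts in a DMSO library were 8, 7, 1 and 8. The 6 calls and the 4 of 2-fold or more thus include genes that entered the test through the group where they are high. The count of 6 was 4 without NTX301 replicate 1 or without DMSO replicate 3.

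**Figure D1:**
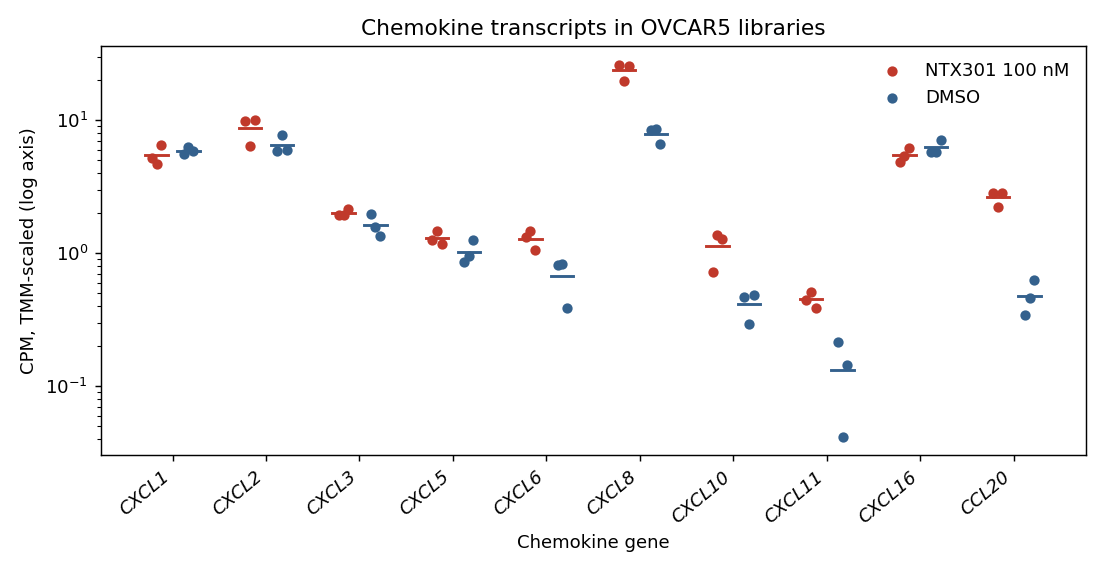
TMM-scaled CPM (log axis) of the 10 chemokine genes in the 3 NTX301 libraries (red) and the 3 DMSO libraries (blue), with 1 point per library and a line at each group mean. The groups are separate for CXCL6, CXCL8, CXCL10, CXCL11 and CCL20 and overlap for the other 5 genes.

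CXCL8, the interleukin-8 gene and the most abundant of the family with NTX301, rose about 3-fold. In CPM, reads scaled to a common library size, it had 26.2, 19.6 and 25.55 in the NTX301 libraries, against 8.46, 8.58 and 6.65 in the DMSO libraries. The lowest NTX301 library was more than double the highest DMSO library, and the groups did not overlap. Its log2 fold change was 1.58 ± 0.13 (estimate ± SE, 95% interval 1.31 to 1.86, edgeR adjusted p = 3.4e-07). CXCL8 (ENSG00000169429.12) lies on chromosome 4 at 73740506 to 73743716 (GRCh38, GENCODE 29, plus strand) and shared no 75-base stretch of its transcripts with another gene.

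CXCL6, also called granulocyte chemotactic protein, was a low transcript that rose. It had 1.33, 1.46 and 1.05 CPM with NTX301, against 0.808, 0.833 and 0.386 CPM with DMSO. The groups did not overlap, but DMSO replicate 3 lay well under the other DMSO libraries. The log2 fold change was 0.90 ± 0.30 (edgeR adjusted p = 0.019). The call was lost without NTX301 replicate 1 (log2 0.87, adjusted p = 0.057), without NTX301 replicate 2 (0.80, adjusted p = 0.074), without DMSO replicate 3 (0.62, adjusted p = 0.07) and in DESeq2 (0.91, adjusted p = 0.054). Adjusted p-values of CXCL6 ranged from 0.0056 to 0.074 over the settings tried.

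CXCL1, CXCL2 and CXCL3, the growth-regulated oncogene chemokines, changed little. CXCL2 had 9.84, 6.37 and 9.96 CPM with NTX301, against 5.83, 7.71 and 5.98 CPM with DMSO. NTX301 replicate 2 lay below DMSO replicate 2, so the groups overlapped. The edgeR log2 fold change was 0.42 ± 0.17 (adjusted p = 0.045), and the call did not hold without NTX301 replicate 1 (0.32, adjusted p = 0.17) or replicate 3 (0.31, adjusted p = 0.17). It did not hold either without DMSO replicate 1 (0.33, adjusted p = 0.15) or replicate 3 (0.35, adjusted p = 0.13), nor in limma-voom (adjusted p = 0.069), and its adjusted p ranged from 0.0029 to 0.17 over all settings.

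CXCL1 had 5.20, 4.64 and 6.495 CPM with NTX301, against 5.57, 6.25 and 5.83 CPM with DMSO. The groups overlapped, with the DMSO libraries inside the wider range of the NTX301 libraries. Its log2 fold change of -0.11 had a 95% interval of -0.41 to 0.18 (edgeR adjusted p = 0.48), and its sign was positive without a scaling factor (0.096) and on log2(TPM + 1) (0.081). CXCL3 had 1.94, 1.93 and 2.14 CPM with NTX301, against 1.96, 1.58 and 1.35 CPM with DMSO. DMSO replicate 1 reached the NTX301 range, and the log2 fold change of 0.29 (95% interval -0.13 to 0.71, edgeR adjusted p = 0.20) passed the threshold only without a scaling factor (0.50, adjusted p = 0.036) and on log2(TPM + 1) (0.39, adjusted p = 0.016) or log2(TPM + 0.1) (0.49, adjusted p = 0.019).

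Reads of these copies can be shared. Of the 75-base stretches in the transcripts of CXCL2, 7.07% also occurred in another gene (CXCL1 or CXCL3), against 4.57% for CXCL3 and 0.25% for CXCL1. CXCL2 and CXCL3 had fractional counts in all 6 libraries, so their counts are estimates. Fractional counts also occurred in 3 libraries for CXCL16, which shared no stretch, and in 4 for CXCL5 (0.12% shared), while CXCL6 (1.0% shared, with PPBPP1) had whole counts in all 6. Summed to a single feature, CXCL1, CXCL2 and CXCL3 had a log2 fold change of 0.20 ± 0.12 (edgeR adjusted p = 0.16). CXCL5, the epithelial neutrophil-activating chemokine and the close copy of CXCL6, had 1.25, 1.46 and 1.17 CPM with NTX301, against 0.851, 0.958 and 1.25 CPM with DMSO. DMSO replicate 3 fell inside the NTX301 range, and the log2 fold change of 0.35 had a 95% interval of -0.18 to 0.87 (edgeR adjusted p = 0.22). Summed with CXCL6 the log2 fold change was 0.60 ± 0.18 (edgeR adjusted p = 0.0097). CXCL6 was called by itself, and CXCL5 and CXCL6 shared no 75-base stretch with each other.

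CXCL10 and CXCL11, the ligands of CXCR3, rose from very low levels of expression. CXCL10 had 0.726, 1.38 and 1.28 CPM with NTX301, against 0.468, 0.292 and 0.482 CPM with DMSO. Each NTX301 library was above every DMSO library, with a log2 fold change of 1.45 ± 0.34 (edgeR adjusted p = 0.0025). CXCL11 had 0.444, 0.511 and 0.389 CPM with NTX301, against 0.213, 0.0417 and 0.145 CPM with DMSO. These values rest on 34 estimated reads over the NTX301 libraries and 9 over the DMSO libraries, and the log2 fold change was 1.72 ± 0.49 (95% interval 0.64 to 2.81, edgeR adjusted p = 0.0081). Both genes overlap ART3 on the other strand, and as no strand setting is given in the sources used here their reads may not be separated from it, although ART3 itself had 11 counts over the NTX301 libraries and 4 over the DMSO libraries.

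CCL20, the CCR6 ligand, had the largest fold change of the 10. It had 2.82, 2.20 and 2.84 CPM with NTX301, against 0.340, 0.458 and 0.626 CPM with DMSO. The lowest NTX301 library stood more than 3 times above the highest DMSO library. Its log2 fold change was 2.47 ± 0.25 (95% interval 1.91 to 3.02, edgeR adjusted p = 3.3e-06), a fitted ratio of 5.53. CCL20 (ENSG00000115009.13) lies on chromosome 2 at 227805739 to 227817564 (plus strand), away from the chemokines of chromosome 4, and all its counts were whole.

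CXCL16, the membrane-bound ligand of CXCR6 on chromosome 17, had 4.84, 5.35 and 6.15 CPM with NTX301, against 5.78, 5.79 and 7.13 CPM with DMSO. The groups overlapped, and the log2 fold change of -0.19 had a 95% interval of -0.47 to 0.093 (edgeR adjusted p = 0.21). Its sign turned without a scaling factor (0.016) and on log2(TPM + 1) (0.011). CXCL16 overlaps MED11 on the other strand. Libraries scaled by their totals alone, or in TPM, gave higher fold changes for the typical gene too: the median over all tested genes was 0.21 without a scaling factor and 0.17 on log2(TPM + 1).

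**Figure D2:**
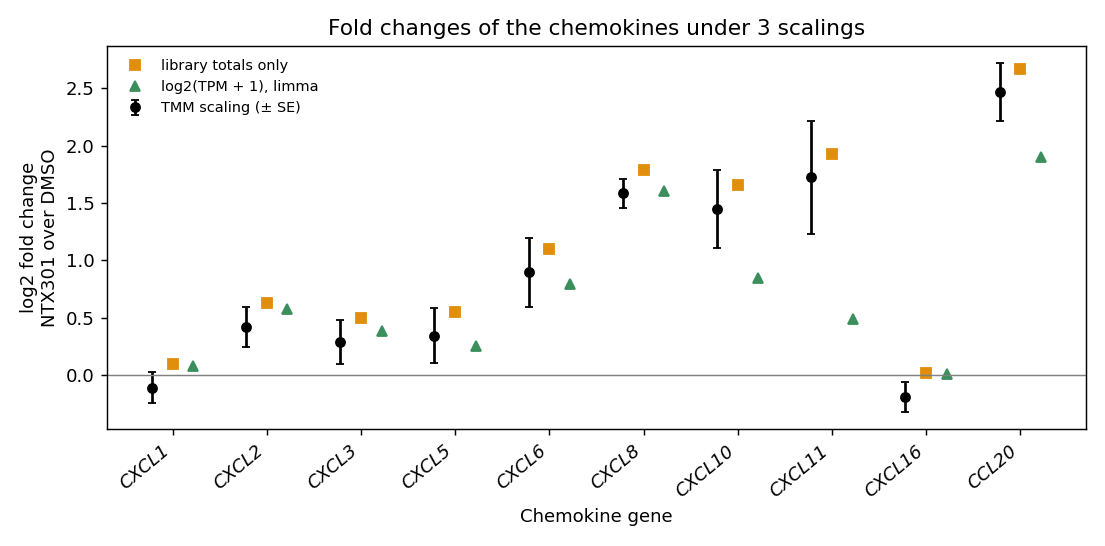
Log2 fold changes (NTX301 over DMSO) of the 10 chemokines from edgeR with TMM scaling (black, ± SE), from edgeR with library totals only (orange) and from limma on log2(TPM + 1) (green). CXCL2, CXCL3, CXCL5, CXCL6, CXCL8, CXCL10, CXCL11 and CCL20 lie above 0 under each, while CXCL1 and CXCL16 cross 0.

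On the per-length TPM scale, which allows levels of different genes to be compared, the order of the chemokines differed between the groups. With NTX301 CXCL8 came first at 29.8 ± 5.22 TPM (mean ± SD, n = 3), followed by CXCL2 at 15.95 ± 3.97 TPM and CXCL1 at 9.46 ± 1.93 TPM. CXCL8 did not overlap CXCL2, whereas CXCL2 overlapped CXCL1. With DMSO CXCL2 (10.25 ± 1.69 TPM), CXCL8 (9.06 ± 1.20 TPM) and CXCL1 (8.79 ± 0.633 TPM) overlapped each other in that order and were not separated beyond their spread. CCL20 ranked 4 with NTX301 at 6.55 ± 1.02 TPM, where it overlapped CXCL16 at 4.88 ± 0.646 TPM, and 6 with DMSO at 1.03 ± 0.332 TPM, where it overlapped CXCL6 at 0.837 ± 0.356 TPM. CXCL11 was the lowest in both groups, at 0.643 ± 0.0473 TPM with NTX301 and 0.173 ± 0.107 TPM with DMSO.

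The ELR-carrying chemokines together came to 65.9, 50.6 and 70.1 TPM in the NTX301 libraries, against 31.5, 35.7 and 29.9 TPM in the DMSO libraries, a ratio of means of 1.92. CXCL8 made up most of that difference. Its share of the summed TPM of all 10 chemokines was 41.3%, 37.2% and 38.4% with NTX301, against 25.45%, 23.9% and 20.3% with DMSO. CCL20 held 8.59 ± 0.191% of the sum with NTX301 and 2.65 ± 0.893% with DMSO (mean ± SD, n = 3 each). The share of CXCL1 was 12.4 ± 1.12% with NTX301 and 22.5 ± 0.991% with DMSO, and that of CXCL16 6.47 ± 1.10% with NTX301 and 12.5 ± 2.41% with DMSO. These shares are descriptions of a chosen set and carry no test.

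**Figure D3:**
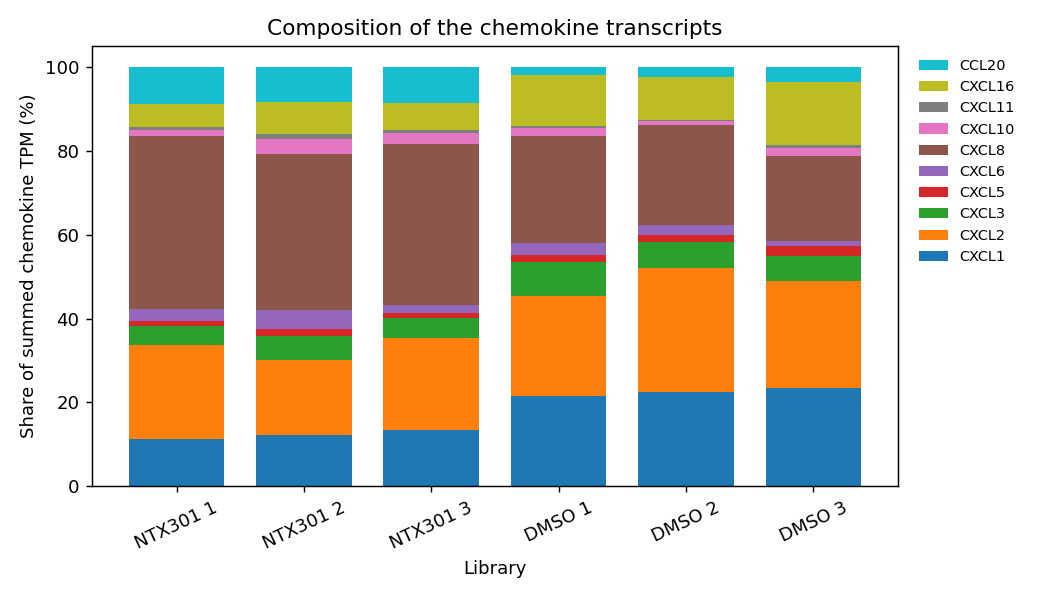
Share (%) of each chemokine in the summed TPM of the 10 genes, 1 bar per library, with the NTX301 libraries left of the DMSO libraries. CXCL8 (brown) takes 37.2% to 41.3% of the sum with NTX301 and 20.3% to 25.45% with DMSO, and CCL20 (top) 8.46% to 8.81% with NTX301.

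Of the 10 genes, 8 lie in 2 groups on chromosome 4, and the fold changes were not uniform along it. From CXCL8, the start of CXCL6 lies 96.0 kb away, CXCL1 128.9 kb, CXCL5 258.3 kb, CXCL3 298.3 kb and CXCL2 358.8 kb, and the pair CXCL10 and CXCL11 lies 2283 and 2300.9 kb away. PF4V1, PF4 and PPBP, platelet chemokines that sit between them, had 3 or fewer counts in each group. Of 10 tested neighbours within 300 kb of a chemokine that are not chemokines, 3 rose and 5 fell, with a median log2 fold change of -0.20. Over all tested genes 35.4% rose and 35.1% fell. RASSF6, 119.9 kb on the other side of CXCL8, fell by 1.06 ± 0.10, and EREG, the epiregulin gene 624.6 kb away, fell by 0.50 ± 0.05 to 124.1 ± 2.12 CPM. SDAD1 and NUP54, which flank CXCL10 and CXCL11, rose by 0.54 ± 0.05 and 0.48 ± 0.05, while SCARB2, a lysosomal receptor, fell by 0.77 ± 0.04.

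**Figure D4:**
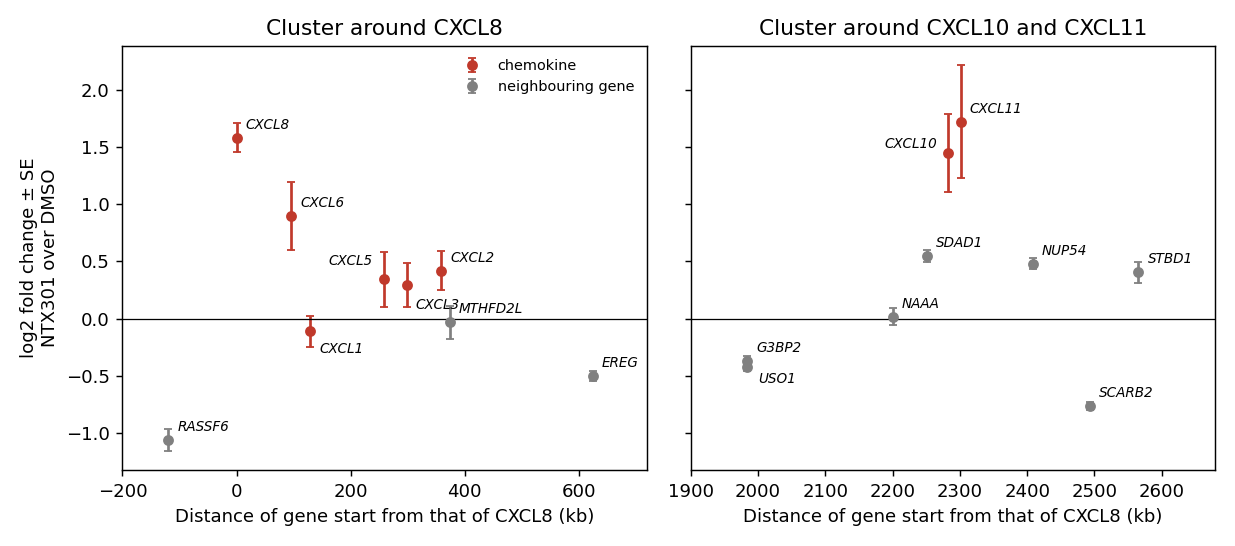
Log2 fold change ± SE (NTX301 over DMSO) of tested chemokines (red) and of tested neighbouring genes (grey) on chromosome 4 against the distance of each gene's start from that of CXCL8 in kb. CXCL8, CXCL10 and CXCL11 rise above 1.4 and CXCL6 stands at 0.90, while the neighbouring genes that are not chemokines range from -1.06 to 0.54.

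Of the other 36 chemokine ligands, 8 had enough counts to be tested. In all 6 libraries 0 counts were found for 2 CXC, CX3C or XC ligands and 6 CC ligands. Among CXC, CX3C and XC ligands, 2 of 3 tested genes rose, and among CC ligands 0 of 5 rose and 4 fell. CXCL12 would not have passed the filter on the DMSO libraries alone (4, 4 and 1 counts). Nor would CCL7 on the NTX301 libraries alone (3, 6 and 7 counts). Each thus entered the test through the group where it is high. CCL26, CCL24 and CCL17, with reads almost only with NTX301, were below the filter. The shares of all tested genes were 35.4% higher and 35.1% lower. CXCL14, a chemokine of normal epithelia, had 8.39, 7.71 and 8.05 CPM with NTX301, against 1.62, 1.00 and 1.35 CPM with DMSO (log2 2.60 ± 0.16, edgeR adjusted p = 3.1e-08). CXCL12, the ligand of CXCR4 and ACKR3, had 1.05, 1.34 and 1.011 CPM with NTX301, against 0.170, 0.167 and 0.0482 CPM with DMSO. CX3CL1, or fractalkine, was not called, at 31.5 ± 0.760 CPM with NTX301 and 31.8 ± 1.70 CPM with DMSO (n = 3 each).

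CCL2, the main monocyte chemoattractant, fell. It had 5.81, 6.61 and 5.48 CPM with NTX301, against 11.1, 11.9 and 10.4 CPM with DMSO (log2 -0.90 ± 0.10, edgeR adjusted p = 7.6e-06). CCL5, which attracts T cells and monocytes, averaged 2.39 ± 0.333 CPM with NTX301 and 3.71 ± 0.164 CPM with DMSO (edgeR adjusted p = 0.0028, n = 3 each), and CCL7 averaged 0.210 ± 0.0790 CPM with NTX301 and 0.805 ± 0.203 CPM with DMSO, a low gene named after its values were seen. CCL28, a mucosal chemokine, fell by 0.57 ± 0.21, a call lost in 7 of 14 alternatives. The 36 other ligands summed to 60.1 ± 1.18 TPM with NTX301 and 57.7 ± 3.52 TPM with DMSO, and the 10 chemokines described here held 55.7 ± 4.25% of all 46 ligands with NTX301 and 40.3 ± 0.285% with DMSO (n = 3 each).

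The signalling receptors CXCR1, CXCR2, CXCR3, CXCR6 and CCR6 had 8 or fewer counts in each group. CXCR1 had 0 counts in all 6 libraries, which allows up to 0.0395 CPM over the NTX301 group and 0.0439 CPM over the DMSO group at a floor of 3 counts (counting error only). CXCR2 had 5 counts over the NTX301 libraries and 3 over the DMSO libraries, and CCR6 had 2 in each group. CXCR3 and CXCR6 had 1 and 8 counts over the NTX301 libraries and 0 over the DMSO libraries. Of 23 chemokine receptors 5 were tested, of which 4 rose (ACKR3, CCRL2, CCR7 and CCR10) and 0 fell, against 35.4% and 35.1% of all tested genes. ACKR3 (4, 7 and 5 counts) and CCR7 (5, 4 and 2 counts) would not have passed the filter on the DMSO libraries alone. The count of 4 thus includes genes that entered the test through the group where they are high. ACKR3, a scavenging receptor for CXCL11 and CXCL12, had 1.61, 1.81 and 1.52 CPM with NTX301, against 0.170, 0.292 and 0.241 CPM with DMSO (log2 2.79 ± 0.29, edgeR adjusted p = 4.0e-06). CCRL2, which binds chemerin, averaged 7.02 ± 0.831 CPM with NTX301 and 3.87 ± 0.358 CPM with DMSO. CCR10, a receptor for CCL28, averaged 3.99 ± 0.153 CPM with NTX301 and 3.12 ± 0.406 CPM with DMSO (edgeR adjusted p = 0.038), a call lost in 7 of 14 alternatives.

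Genes known to act upstream of these chemokines moved in both directions, as did all tested genes (35.4% higher and 35.1% lower). Of 27 tested inducing cytokines, receptors and adaptors, 13 rose and 8 fell (median log2 fold change 0.08). IL1A, which encodes interleukin-1 alpha, had 12.6, 12.7 and 12.02 CPM with NTX301, against 1.23, 0.625 and 0.675 CPM with DMSO. IL1B had 3.63, 3.15 and 3.77 CPM with NTX301, against 0.425, 0.542 and 0.723 CPM with DMSO. These interleukin-1 genes, which encode inducers of CXCL8 and CCL20, rose by 3.87 ± 0.17 and 2.64 ± 0.22 on the log2 scale. IL6 had 4.596, 4.09 and 4.94 CPM with NTX301, against 0.510, 0.458 and 0.289 CPM with DMSO, and TNF, a low transcript, had 0.847, 0.472 and 0.856 CPM with NTX301, against 0.128, 0.167 and 0.0964 CPM with DMSO.

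The receptors of those cytokines did not move together. IL1R1, the signalling receptor of interleukin-1, averaged 8.74 ± 0.493 CPM with NTX301 and 8.83 ± 0.372 CPM with DMSO and was not called, while the decoy IL1R2 rose by 3.36 ± 0.34. TNFRSF1B, a TNF receptor, averaged 96.7 ± 2.91 CPM with NTX301 and 29.6 ± 1.73 CPM with DMSO (edgeR adjusted p = 1.3e-10, n = 3 each). TNFRSF1A, the other TNF receptor, averaged 99.4 ± 2.72 CPM with NTX301 and 210 ± 7.21 CPM with DMSO. IL1R1 and TNFRSF1A were named after their values were seen.

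Of 15 NF-kB genes 5 rose and 6 fell (median log2 fold change -0.07), with 8 higher without a scaling factor and 3 lower on log2(TPM + 1). With TMM scaling, 35.4% of all tested genes were higher and 35.1% lower. RELA, the main activating subunit, averaged 97.0 ± 2.33 CPM with NTX301 and 95.3 ± 4.43 CPM with DMSO and was not called, though it was higher without a scaling factor (0.23, edgeR adjusted p = 0.00045). NFKB1 averaged 90.9 ± 6.47 CPM with NTX301 and 99.7 ± 2.83 CPM with DMSO, a fall in edgeR (adjusted p = 0.037). Its groups overlapped in CPM. Of 14 alternatives 6 kept the sign but lost the call, and 3 had the opposite sign. Among the latter were no scaling factor (0.074) and log2(TPM + 1) (0.086). NFKBIA, the inhibitor IkB alpha, averaged 77.8 ± 5.71 CPM with NTX301 and 100.4 ± 3.04 CPM with DMSO. Its call as lower was lost in 2 of 14 alternatives, and its groups overlapped in TPM. REL fell by 0.89 ± 0.06. TNFAIP3, the feedback inhibitor A20, rose by 1.02 ± 0.07, and NFKB2 and NFKBIE rose by 0.72 ± 0.05 and 0.77 ± 0.06. NFKBIZ, a nuclear cofactor for some NF-kB targets, averaged 33.4 ± 1.46 CPM with NTX301 and 86.8 ± 5.21 CPM with DMSO.

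Of 15 genes in the AP-1 and C/EBP list, which also holds EGR1, 13 rose and 2 fell (median log2 fold change 1.29, the same calls in all 14 alternatives by count). The 2 that fell were JUND (by 1.17 ± 0.05) and CEBPD (by 0.64 ± 0.05), both named after their values were seen. JUN averaged 168 ± 9.98 CPM with NTX301 and 59.95 ± 1.12 CPM with DMSO, ATF3 rose by 2.34 ± 0.10, FOSB by 1.63 ± 0.20 and CEBPA by 1.65 ± 0.11. BATF3 averaged 3.51 ± 0.875 CPM with NTX301 and 0.0741 ± 0.0281 CPM with DMSO. Of 24 tested interferon response genes 7 rose and 10 fell (median -0.06), with 12 higher without a scaling factor or on log2(TPM + 1). For both lists, the shares of all tested genes were 35.4% higher and 35.1% lower with TMM scaling. IFNG and IFNB1, the interferon genes themselves, had 0 counts in all 6 libraries. IRF1, a transcription factor that acts on CXCL10, rose by 0.67 ± 0.07, and GBP1 and SOCS1 each rose by 1.77. OAS1, GBP2 and SOCS3 fell by 1.41 ± 0.08, 1.16 ± 0.05 and 0.86 ± 0.06.

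**Figure D5:**
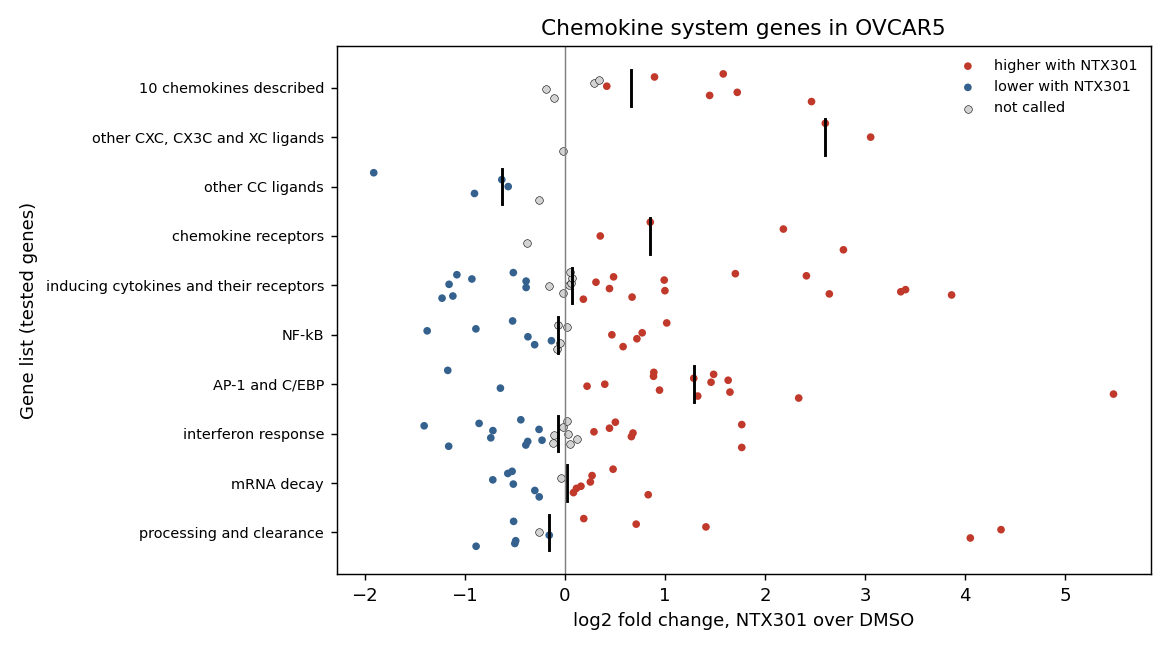
Log2 fold changes (NTX301 over DMSO) of tested genes by list, 1 point per gene, with a black line at each list's median. Red points were higher with NTX301, blue lower and grey not called (edgeR, adjusted p under 0.05). The AP-1 and C/EBP list has 13 red points of 15, while NF-kB and interferon response genes lie on both sides of 0.

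Genes that act on chemokine transcripts and proteins were also mixed, as were all tested genes (35.4% higher and 35.1% lower). Of 14 genes of mRNA decay 7 rose and 6 fell, but 4 rose without NTX301 replicate 1, NTX301 replicate 3 or DMSO replicate 3. ZFP36, or tristetraprolin, which promotes decay of chemokine mRNAs, averaged 16.9 ± 1.06 CPM with NTX301 and 25.1 ± 0.332 CPM with DMSO (edgeR adjusted p = 4.9e-06, n = 3 each). ZFP36L1, TIA1 and RC3H1 fell by 0.53 ± 0.04, 0.72 ± 0.06 and 0.51 ± 0.06, and DUSP1, a phosphatase of stress kinases, rose by 0.83 ± 0.07. ZFP36L2 went the other way, with 98.5, 95.3 and 100.1 CPM with NTX301, against 71.4, 68.9 and 70.1 CPM with DMSO. So did RC3H2, with 93.9, 91.0 and 106.6 CPM with NTX301, against 80.7, 80.2 and 83.4 CPM with DMSO. ZFP36L2 and RC3H2 were named after their values were seen. Of 11 tested genes of processing and clearance 5 rose and 5 fell. ADAM10, the sheddase of CXCL16 and CX3CL1, had 357, 361 and 353 CPM with NTX301, against 655, 657 and 667 CPM with DMSO. ADAM17 and DPP4, a peptidase that trims CXCL10 and CXCL11, fell by 0.50 ± 0.04 and 0.49 ± 0.04. SDC1, a heparan sulfate proteoglycan that binds chemokines, averaged 102 ± 1.64 CPM with NTX301 and 38.4 ± 1.54 CPM with DMSO, and SDC2 rose by 0.71 ± 0.04. MMP9 and MMP1, proteases that can cut chemokines, rose by 4.36 ± 0.24 and 4.05 ± 0.47 from low levels.

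Markers of other cell types were measured because leukocytes and fibroblasts also make these chemokines. Of 8 leukocyte markers 4 were tested, with 2 higher (CD14 and CSF3R), 1 lower (LYZ) and 1 not called (ITGAM). The summed level of the 8 was 25.7 to 26.9 CPM with NTX301 and 19.9 to 20.5 CPM with DMSO, most of it CD14 (19.1 CPM with NTX301 and 13.6 CPM with DMSO). PTPRC, the pan-leukocyte marker CD45, had 7 counts over the NTX301 libraries and 0 over the DMSO libraries, CD3E had 1 over the NTX301 libraries and 0 over the DMSO libraries, and the neutrophil marker FCGR3B had 0 in all 6. CSF3R, the granulocyte colony-stimulating factor receptor, averaged 0.790 ± 0.0667 CPM with NTX301 and 0.187 ± 0.0816 CPM with DMSO (log2 2.03 ± 0.37, edgeR adjusted p = 0.00043). Fibroblast markers summed to 16.97 to 18.02 CPM with NTX301 and 3.62 to 4.63 CPM with DMSO, with 4 of 5 tested genes higher and 1 lower. Log2 fold changes were 2.99 ± 0.18 for PDGFRA, 2.97 ± 0.19 for PDGFRB, 1.82 ± 0.23 for ACTA2, 1.47 ± 0.40 for COL3A1 and -0.66 ± 0.21 for LUM. The untested markers DCN and THY1 had 6 and 3 counts over the NTX301 libraries and 1 each over the DMSO libraries. Of 4 tested endothelial markers 2 rose and 0 fell, and of 4 tested mesothelial markers 1 rose and 1 fell. Over all tested genes 35.4% were higher and 35.1% lower. The part of these marker shifts in the chemokine values was not tested.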

How the data were processed

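RNA sequencing of OVCAR5 cells was compared between 3 NTX301 and 3 DMSO libraries, grouped and numbered by their titles. A 10 nM dose and methylation arrays named in the labels were not analysed here. The authors deposited 1 gene table per library with the columns RSEM writes, per the file headers: expected counts (estimated reads per gene, not normalized), TPM and FPKM, of which FPKM was not used. Versions, genome build, annotation release and strand setting were found in no source used here. Expected counts were rounded, and 47 pseudoautosomal Y entries (0.0224% of counts) were added to their X copies, leaving 62656 genes, of which 62639 matched a symbol by stable identifier. Positions are from GENCODE 29.

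Genes were kept by filterByExpr (19029), scaled by TMM and tested with edgeR 4.0.16 (R 4.3.3, glmQLFit and glmQLFTest, treatment as the only term), with Benjamini-Hochberg adjustment over all tested genes at 0.05. A low gene can pass the filter through the libraries of a single group. This held for genes of the other lists too, such as TNF, IL6, IL1R2, BATF3, MMP1 and MMP9, which had few counts in DMSO libraries. The procedure was tested on simulated data. CPM are rounded counts scaled by TMM library sizes, and SEs and 95% intervals come from the fold change and F statistic. For untested genes, ratios of summed counts have exact 95% binomial intervals. Stretches of 75 bases were chosen because effective lengths were 74 bases below gene lengths. Promoters are RefSeq sequences, aligned with Biopython 1.88. Alternatives used DESeq2 1.42.0, limma 3.58.1, other scalings, TPM, no filter, a replicate block, summed copies and each library left out.

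The chemokines and lists were chosen with earlier results of these data known. Text names all 10 chemokines, every other ligand or receptor past the threshold at 1 CPM or more, up to 5 genes with the largest changes of each other list, and fixed receptors and regulators, of which 1 is not reported here. Same-numbered libraries were not treated as pairs. Within groups, chi-square over degrees of freedom was 2.37 to 6.57 between libraries, so none was taken for a duplicate.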

Additional observations from a re-analysis of the deposited data

How the results depend on the processing

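CXCL8, CXCL10, CXCL11 and CCL20 kept their direction and their call in all 14 alternatives, with adjusted p-values up to 1.9e-05, 0.017, 0.049 and 5.4e-05. The fold changes of CXCL10 and CXCL11 were smaller on log2(TPM + 1) (0.85 and 0.49), where a pseudocount of 1 exceeds their lowest levels. The count of chemokines called higher ranged from 4 to 8 and of those called lower was 0 throughout. For CXCL1 the sign was positive without a scaling factor (0.096), on log2(TPM + 1) (0.081) and on log2(TPM + 0.1) (0.087). CXCL16 was positive under the same scalings (0.016, 0.011 and 0.014). The sum of CXCL1, CXCL2 and CXCL3 was positive (0.204), which is not a value of CXCL1 alone. CXCL2 was not called in limma-voom (0.398), with a replicate block (0.407, adjusted p = 0.056) or with its copies summed (0.204), and its log2 fold change was 0.313 to 0.602 with 1 library left out. CXCL3 was called without a scaling factor (0.497), on log2(TPM + 1) (0.386) and on log2(TPM + 0.1) (0.494), and CXCL5 on log2(TPM + 1) (0.25). The sum of CXCL5 and CXCL6 was called (0.596), which is not a call of CXCL5 alone. CXCL6 was not called in DESeq2 (0.912) and gave 0.622 to 1.061 with 1 library left out. The causes were not tested.

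In CPM in place of TPM the change in share (NTX301 minus DMSO) was -8.64 percentage points for CXCL1, 19.95 for CXCL8, -9.76 for CXCL16 and 3.47 for CCL20. Genes called lower numbered 4318 on log2(TPM + 1) and 4297 on log2(TPM + 0.1), against 6677, and 66.71% of calls were then higher, 65.01% without a scaling factor and 50.25% with TMM. NFKB1 was positive without a scaling factor (0.074), on log2(TPM + 1) (0.086) and on log2(TPM + 0.1) (0.087), and RELA was negative without a filter (-0.002) and without DMSO replicate 3 (-0.023, range to 0.046 with 1 library left out). Deviations from the group means correlated at 0.124, 0.018 and 0.095 between same-numbered libraries. Not all were over 0.1, so numbers were not taken to pair the samples, although each NTX301 library correlated best with its own number. The replicate block called 5 chemokines higher. Among other CC ligands 3 were called higher without the filter on low counts and 1 without NTX301 replicate 3 or any 1 DMSO library, against 0. CXCL11, with 9 counts over the DMSO libraries, is limited by depth.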

Other observations

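Some chemokines below the filter on low counts had reads almost only with NTX301, and these were picked after their values were seen. CCL26, or eotaxin-3, which attracts eosinophils, had 39 counts over the NTX301 libraries and 1 over the DMSO libraries (ratio 35.1, exact 95% interval for counting error 5.93 to 1420). CCL24, eotaxin-2, had 24 counts with NTX301 and 1 with DMSO (ratio 21.6, interval 3.52 to 887.4). CCL17, a T cell chemokine, had 10 counts with NTX301 and 0 with DMSO, at least 3.00-fold higher when DMSO is set to 3 counts in all. Without the filter edgeR gave adjusted p = 2.6e-05 for CCL26, 0.00082 for CCL24 and 0.02 for CCL17, each with counts in all 3 NTX301 libraries. LTA, which encodes lymphotoxin alpha, had 24 counts with NTX301 and 1 with DMSO (ratio 21.6).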
